A study of Solanum lycopersicum with 18 samples.

Results

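A pair of tomato genes named for sodium transport was followed in leaves during salt treatment. These were the sodium transporter gene HKT1;2 and the sodium/hydrogen exchanger 8-like gene LOC101263995. They were picked from the deposited table by their names, with earlier results of these data known, and are 2 of its 23808 genes. Leaf RNA was sequenced from 2 tomato materials, Micro-TOM, a dwarf cultivar used as a laboratory model, and Micro-TOM-EX, each at 0, 2 and 8 h of NaCl treatment. The 6 groups held 3 libraries each, 18 in all, from greenhouse plants in soil that had 16 h of light a day. The sources used here do not say what sets Micro-TOM-EX apart, what the NaCl dose was, or whether replicate libraries stand for different plants, so p-values measure the spread between these libraries, which may be technical. Untreated leaves of 2 h and 8 h were not analysed here, so the effects of salt and of the time of day cannot be told apart in any comparison of hours.

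Sodium that enters the root travels to the leaf in the xylem, where it damages chloroplasts and enzymes as it builds up. HKT transporters of class 1 take sodium back out of the xylem sap into the cells around the vessels, in leaf veins as well as in roots, and so hold down the sodium that reaches the leaf blade. Sodium/proton exchangers work further on: they use a proton gradient to move sodium out of the cytosol, across the plasma membrane as SOS1 does, or into vacuoles and other compartments as NHX proteins do. The Arabidopsis protein that carries the number of the exchanger studied here, NHX8, is a relative of SOS1, but LOC101263995 is known here by its automatic name alone, and tomato sos1 is a separate gene of the table.

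Positions are as the authors deposited them, on a genome build that the labels do not name. HKT1;2 (gene ID 101251695) lies on the plus strand of chromosome 7 from 5091883 to 5097553. It has 1 transcript of 1512 bases. The only other HKT gene of the table, HKT1;1 (LOC101245180), follows on the same strand from 5103975 to 5107240, 6421 bases further on, with 0 genes of the table between them. LOC101263995 (gene ID 101263995) lies on the plus strand of chromosome 4 from 9572798 to 9587674 and has 9 transcripts, the longest of 3881 bases.

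Levels are in FPKM, fragments scaled to transcript length and to the mapped fragments of a library, and are given as mean ± SD over the 3 libraries of a group. Libraries held about 17.9 to 19.82 M (mega) fragments, as judged from the spacing of low values, and 15506 to 17343 genes reached 1 FPKM. At that depth the HKT1;2 values rest on roughly 12 to 471 fragments and those of LOC101263995 on roughly 48 to 255, if all its fragments fell on the longest transcript. Changes are differences of log2(FPKM + 1) from limma, with p-values adjusted by Benjamini and Hochberg over the 18402 genes tested and 0.05 as the threshold. This scale understates the changes of genes near or under 1 FPKM. Leaf mesophyll markers were abundant, with 32 of 33 at a mean of at least 1 FPKM over all 18 libraries. Of the 7 root markers 0 reached that mean over all libraries, and their summed level was 0.43 to 3.59 FPKM, although the Casparian strip genes LOC101244870 (2.45 FPKM at 0 h in Micro-TOM-EX) and LOC101263718 (1.91 FPKM at 8 h in Micro-TOM) had group means above 1 FPKM.

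In Micro-TOM leaves HKT1;2 was higher at 2 h than before salt and near or under 1 FPKM at 8 h. Before salt its level was 4.56, 7.51 and 6.58 FPKM in the 3 libraries. At 2 h it was 17.31, 12.8 and 17.31 FPKM, and at 8 h it was 1.54, 0.81 and 0.61 FPKM. All 2 h libraries lay above all 0 h libraries, and all 8 h libraries lay below both other hours, with no overlap. The mean rose from 6.22 ± 1.51 to 15.8 ± 2.6 FPKM at 2 h, which is 2.54-fold (log2 change 1.23, SE 0.28, 95% interval 0.63 to 1.83, limma adjusted p = 0.00093). From 0 h to 8 h it fell to 0.987 ± 0.49 FPKM, 0.159 of the starting level (log2 change -1.87, SE 0.28, adjusted p = 2.1e-05). Between 2 h and 8 h it fell to 0.0624 of the 2 h level (log2 change -3.10, adjusted p = 1e-07).

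**Figure D1:**
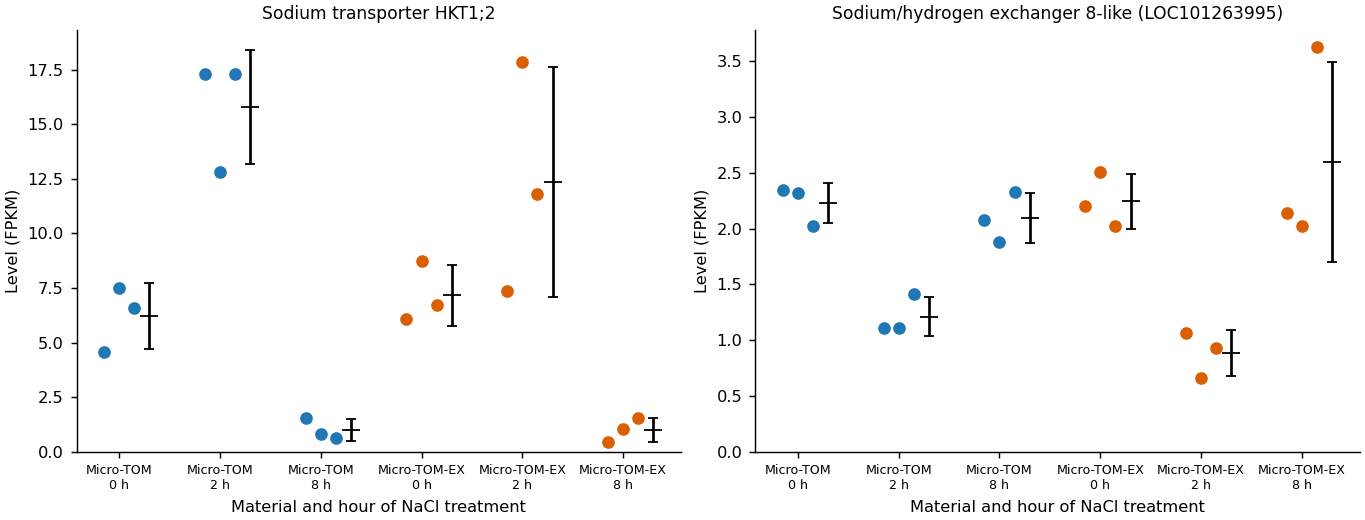
Level of HKT1;2 (left) and LOC101263995 (right) in FPKM on linear axes from 0, by material and hour of NaCl treatment; coloured points are single libraries, 3 per group, and the black bar is the mean with its SD. HKT1;2 stands at 4.56 to 8.74 FPKM at 0 h, at 7.37 to 17.85 at 2 h and at 0.45 to 1.55 at 8 h, while LOC101263995 is at its lowest at 2 h in both materials.

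In Micro-TOM-EX the rise of HKT1;2 at 2 h was less certain, and the fall by 8 h was as clear. Before salt its level was 6.06, 8.74 and 6.7 FPKM. At 2 h it was 7.37, 17.85 and 11.82 FPKM, and at 8 h it was 0.45, 1.03 and 1.55 FPKM. The 2 h libraries were spread widely: the lowest of them lay inside the range of the 0 h libraries, so those groups overlapped, while the 8 h libraries lay below all others of this material. The mean was 7.17 ± 1.4 FPKM at 0 h and 12.3 ± 5.26 at 2 h, and this 1.72-fold difference passed the test narrowly (log2 change 0.64, SE 0.28, 95% interval 0.05 to 1.24, adjusted p = 0.048). Without the library of highest level at 2 h the change was 0.36 (adjusted p = 0.26), and with a pseudocount of 0.1 the adjusted p was 0.12. From 0 h to 8 h HKT1;2 fell to 1.01 ± 0.55 FPKM, 0.141 of the starting level (log2 change -2.05, SE 0.28, adjusted p = 7.8e-06). Between 2 h and 8 h it fell to 0.0818 of the 2 h level (log2 change -2.69, adjusted p = 4.8e-07).

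LOC101263995 moved the other way at 2 h, and at 8 h it was not found to differ from its starting level. In Micro-TOM its level was 2.35, 2.32 and 2.02 FPKM at 0 h. At 2 h it was 1.11, 1.11 and 1.41 FPKM, and at 8 h it was 2.08, 1.88 and 2.33 FPKM. The 2 h libraries lay below all libraries of the other hours, and the 0 h and 8 h libraries overlapped. The mean fell from 2.23 ± 0.182 to 1.21 ± 0.173 FPKM at 2 h, 0.543 of the starting level (log2 change -0.55, SE 0.15, 95% interval -0.87 to -0.22, adjusted p = 0.0041). At 8 h it was 2.1 ± 0.225 FPKM, a difference from 0 h of -0.06 (95% interval -0.39 to 0.26, adjusted p = 0.73). The return between 2 h and 8 h measured 0.49 (adjusted p = 0.0098), but 0.25 (adjusted p = 0.13) after the libraries were rescaled by their median ratios.

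In Micro-TOM-EX the level of LOC101263995 was 2.2, 2.51 and 2.02 FPKM at 0 h. At 2 h it was 1.06, 0.66 and 0.93 FPKM, and at 8 h it was 2.14, 2.02 and 3.63 FPKM. The 2 h libraries were the lowest again, without overlap, and at 8 h 1 library stood well above the other two. The mean fell from 2.24 ± 0.248 to 0.883 ± 0.204 FPKM at 2 h, 0.394 of the starting level (log2 change -0.79, SE 0.15, 95% interval -1.11 to -0.46, adjusted p = 0.00021). By 8 h it had risen from there to 2.6 ± 0.897 FPKM (log2 change 0.91, adjusted p = 6.6e-05). The level at 8 h differed from that at 0 h by 0.12 (95% interval -0.20 to 0.45, adjusted p = 0.48), and by -0.07 without the highest library of 8 h.

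Changes of these sizes have to be read against a transcriptome in which most genes moved between hours. Both genes passed the test at 2 h in Micro-TOM, where 74.9% of all genes tested did so, 27.5% of them higher and 47.5% lower as shares of all genes tested. In Micro-TOM-EX both passed as well, against 75.9% of all genes, 26.7% higher and 49.2% lower. At 8 h against 0 h 1 of the 2 members passed in each material, HKT1;2, against 70.6% of all genes in Micro-TOM (33.6% lower) and 71.3% in Micro-TOM-EX (35.8% lower). At 8 h against 2 h both passed in each material, against 69.8% of all genes in Micro-TOM (46% higher, 23.7% lower) and 69% in Micro-TOM-EX (45.3% higher, 23.7% lower). Passing between hours was therefore common to most genes. The median change of all genes was -0.31 at 2 h in Micro-TOM and -0.37 in Micro-TOM-EX, against 1.23 and 0.64 for HKT1;2 and -0.55 and -0.79 for LOC101263995. For 8 h the medians were 0.04 and 0.00, against -1.87 and -2.05 for HKT1;2.

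That lean towards lower values at 2 h depended on the scale of the libraries. Dividing each library by its median ratio to the other libraries raised the median change of all genes at 2 h by 0.25 in Micro-TOM and 0.27 in Micro-TOM-EX. It turned 5055 higher and 8734 lower genes into 6357 and 7008 in Micro-TOM, and 4919 and 9049 into 6266 and 7352 in Micro-TOM-EX. Between 2 h and 8 h it lowered the median by 0.30 and 0.27, turning 8472 higher and 4365 lower genes into 6103 and 6284 in Micro-TOM and 8336 and 4357 into 6226 and 6050 in Micro-TOM-EX. HKT1;2 gained from this at 2 h, with a change of 1.52 (adjusted p = 0.00013) in Micro-TOM and 0.95 (adjusted p = 0.0057) in Micro-TOM-EX. LOC101263995 lost part of its fall but still passed, with -0.36 (adjusted p = 0.034) and -0.60 (adjusted p = 0.0013). The fall of HKT1;2 at 8 h was -1.87 and -2.01 on that scale, almost the same as before.

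The authors' deposited table gives the same directions for the hours. For HKT1;2 the authors' deposited table lists a log2 fold change of 1.72 (q = 8.46e-12) at 2 h in Micro-TOM and 1.27 (q = 0.000556) in Micro-TOM-EX. At 8 h against 0 h the authors' deposited table lists -2.68 (q = 1.4e-11) and -2.75 (q = 7.88e-12) for this gene. For LOC101263995 at 2 h the authors' deposited table lists -0.52 (q = 0.0443) in Micro-TOM and -0.87 (q = 0.00458) in Micro-TOM-EX. Its return between 2 h and 8 h has 1.16 (q = 0.000953) in Micro-TOM-EX and 0.38 (q = 0.195) in Micro-TOM in the authors' deposited table, so the latter passes here on the deposited FPKM scale only.

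**Figure D2:**
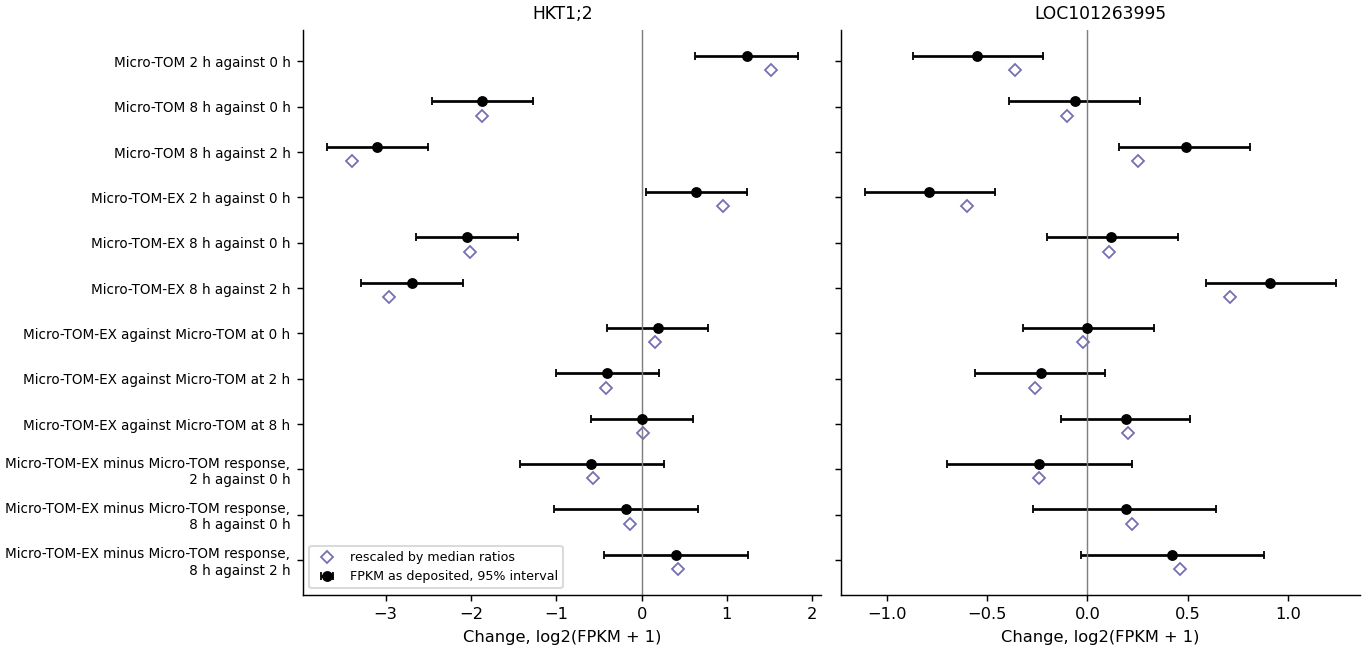
Change of HKT1;2 (left) and LOC101263995 (right) in the 12 comparisons, in log2(FPKM + 1), with black points and 95% intervals for FPKM as deposited and open diamonds after rescaling by median ratios; the 2 panels have different horizontal scales. All intervals between the materials and of the differences between their responses cross 0, while for HKT1;2 the changes between 2 h and 8 h reach -3.10 and -2.69.

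Neither gene was found to differ between the materials at any hour. For HKT1;2 the difference of Micro-TOM-EX from Micro-TOM was 0.19 before salt (95% interval -0.41 to 0.78, adjusted p = 0.86). It was -0.40 at 2 h (95% interval -1.0 to 0.20, adjusted p = 0.39) and 0.01 at 8 h (95% interval -0.59 to 0.60, adjusted p = 1.0). These intervals leave room for differences of up to about 1 on the log2 scale in a 2 h leaf, so the test does not show that the materials were alike. For LOC101263995 the difference was 0.00 before salt (95% interval -0.32 to 0.33, adjusted p = 1.0). It was -0.23 at 2 h (95% interval -0.56 to 0.09, adjusted p = 0.35) and 0.19 at 8 h (95% interval -0.13 to 0.51, adjusted p = 0.67). At 2 h its 3 Micro-TOM-EX libraries, at most 1.06 FPKM, all lay below the 3 Micro-TOM libraries, at least 1.11 FPKM, yet the gap was within what the spread allows. Of all genes 4.01% differed between the materials at 0 h, 13.7% at 2 h and 1.67% at 8 h. With only the groups compared in the fit, the genes called fell from 359 higher and 379 lower to 45 and 59 at 0 h, and from 182 and 125 to 102 and 61 at 8 h. The authors' deposited table lists q values of 0.639 to 0.986 for HKT1;2 and 0.453 to 0.984 for LOC101263995 in these comparisons.

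The responses themselves were also compared, since the rise of HKT1;2 at 2 h was smaller in Micro-TOM-EX and the fall of LOC101263995 larger. The response of HKT1;2 at 2 h differed between the materials by -0.59 (SE 0.40, 95% interval -1.43 to 0.26, adjusted p = 0.46). Between 0 h and 8 h the difference was -0.18 (95% interval -1.03 to 0.66, adjusted p = 0.91), and at 8 h against 2 h it was 0.40 (95% interval -0.44 to 1.25, adjusted p = 0.76). For LOC101263995 the 2 h responses differed by -0.24 (SE 0.22, 95% interval -0.70 to 0.22, adjusted p = 0.6). From 0 h to 8 h the difference was 0.19 (adjusted p = 0.8) and at 8 h against 2 h it was 0.42 (95% interval -0.03 to 0.88, adjusted p = 0.43). So 0 of these 6 differences passed, where 6.49%, 1.35% and 1.92% of all genes did so in the 3 comparisons of responses. At an unadjusted p under 0.05 0 of the 6 were past the threshold too.

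Ordered by mean level, HKT1;2 stood highest in Micro-TOM at 2 h, followed by Micro-TOM-EX at 2 h, Micro-TOM-EX at 0 h, Micro-TOM at 0 h, Micro-TOM-EX at 8 h and Micro-TOM at 8 h. Of the 5 steps in this order only the one from Micro-TOM at 0 h to Micro-TOM-EX at 8 h separated groups whose libraries did not overlap. LOC101263995 stood highest in Micro-TOM-EX at 8 h, followed by Micro-TOM-EX at 0 h, Micro-TOM at 0 h, Micro-TOM at 8 h, Micro-TOM at 2 h and Micro-TOM-EX at 2 h. Its first 4 groups overlapped from each to the next, and the steps down to Micro-TOM at 2 h and on to Micro-TOM-EX at 2 h did not. Across the 18 libraries the levels of both genes had a Pearson r of -0.638 (Spearman rho -0.552), a description of libraries that share hours and materials.

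HKT1;2 was the HKT gene with most of the leaf signal. HKT1;1 stayed between 0.06 and 0.67 FPKM in all 18 libraries and did not reach the level needed for testing. Its mean was 0.317 ± 0.0569 FPKM at 0 h in Micro-TOM and 0.343 ± 0.0503 in Micro-TOM-EX. The mean FPKM of HKT1;2 was 19.6 times that of HKT1;1 before salt in Micro-TOM, 40.9 times at 2 h and 4.05 times at 8 h. In Micro-TOM-EX the ratios were 20.9, 26.1 and 2.42. The narrowing at 8 h came with the fall of HKT1;2, as HKT1;1 was at 0.243 ± 0.176 and 0.417 ± 0.18 FPKM at that hour. The neighbours may share reads, and the sources used here do not say how such reads were counted.

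Among sodium/proton exchangers, LOC101263995 followed the plasma membrane exchanger sos1 down at 2 h but not up at 8 h. The table holds 7 genes named as sodium/hydrogen exchangers, LOC101263995 included, and 6 of them were tested. At 2 h in Micro-TOM 1 rose, 2 fell and 3 did not pass (median -0.33, against -0.31 for all genes), where 27.5% of all genes rose and 47.5% fell. In Micro-TOM-EX 2 rose and 4 fell (median -0.52, against -0.37), where 26.7% of all genes rose and 49.2% fell. After rescaling 2 rose and 2 fell in each material. On that scale 6357 of all 18402 genes tested rose and 7008 fell in Micro-TOM (6266 and 7352 in Micro-TOM-EX). At 8 h against 0 h 5 of 6 rose in each material, with medians of 0.99 and 1.36, where 37% and 35.5% of all genes rose. LOC101263995 was the 1 exchanger that did not pass at 8 h.

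The tomato gene sos1 (chromosome 1, 30723 to 43938, minus strand), whose product expels sodium at the plasma membrane, had levels of 11.13, 10.85 and 13.17 FPKM at 0 h in Micro-TOM. At 2 h it stood at 4.24, 3.76 and 4.66 FPKM, and at 8 h at 22.77, 20.96 and 21.83 FPKM. Its 3 hours did not overlap, with a log2 change of -1.28 at 2 h (adjusted p = 2.4e-07) and a rise of 0.85 at 8 h (adjusted p = 2.4e-05). In Micro-TOM-EX sos1 went from 12.5 ± 0.685 to 4.15 ± 1.07 FPKM at 2 h (log2 change -1.41, adjusted p = 7.6e-08) and to 21 ± 1.33 at 8 h (0.70 against 0 h, adjusted p = 0.00016). Per length, LOC101263995 was the lower of the pair in every group, at 2.23 against 11.7 FPKM before salt and 2.1 against 21.9 at 8 h in Micro-TOM.

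The exchangers of vacuoles and other inner compartments were highest at 8 h, the hour at which HKT1;2 was lowest. The gene nhx4, a sodium and potassium exchanger, was at 7.79 ± 3.16 FPKM at 0 h in Micro-TOM, 10.8 ± 0.128 at 2 h and 128 ± 14.4 at 8 h (log2 change at 8 h 3.93, adjusted p = 8.8e-10). In Micro-TOM-EX nhx4 rose from 6.58 ± 0.825 to 139 ± 22.2 FPKM at 8 h (4.2, adjusted p = 4.4e-10). Its rise there at 2 h, to 11.6 ± 4.13 FPKM, was smaller (0.69, adjusted p = 0.017), and 0.44 (adjusted p = 0.11) without the highest 2 h library. Its relative nhx3 rose at both hours, from 8.57 ± 0.42 to 47.7 ± 2.55 and 93.2 ± 8.51 FPKM in Micro-TOM (2.35 and 3.30, adjusted p = 8e-09 and 1.9e-10). At 8 h the mean of HKT1;2 was thus 0.987 FPKM in Micro-TOM where those of nhx3 and nhx4 were 93.2 and 128, while at 0 h it was 6.22 where theirs were 8.57 and 7.79. NHX2 rose at 8 h from 10.7 ± 0.383 to 24.4 ± 1.58 FPKM in Micro-TOM (1.12, adjusted p = 9.9e-08) and from 11.6 ± 1.21 to 22.4 ± 1.86 in Micro-TOM-EX (0.89, adjusted p = 1.4e-06).

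NHX1, a vacuolar exchanger, was the 1 exchanger that passed the test between the materials. In Micro-TOM-EX it rose from 8.02 ± 1.61 FPKM at 0 h to 32.2 ± 11.8 at 8 h (1.82, adjusted p = 3.3e-05). In Micro-TOM it went from 6.48 ± 1.34 to 12.6 ± 5.13 FPKM (0.80, adjusted p = 0.02), with overlap, and this no longer passed with the groups alone (0.051) or without any 1 of 3 libraries (0.07 to 0.11). At 2 h NHX1 was below its 0 h level without overlap, at 3.74 ± 0.148 FPKM in Micro-TOM and 3.8 ± 0.616 in Micro-TOM-EX. That fall passed in Micro-TOM-EX (-0.9, limma adjusted p = 0.0096, but 0.052 after rescaling). In Micro-TOM it did not pass (-0.64, limma adjusted p = 0.054). The level of NHX1 at 8 h was 17.09, 7.03 and 13.78 FPKM in Micro-TOM and 40.44, 37.53 and 18.65 FPKM in Micro-TOM-EX, with no overlap. The difference was 1.29 (SE 0.29, adjusted p = 0.029), but it no longer passed with the replicate number as a block within each hour (adjusted p = 0.082), with these groups fitted alone (0.24) or without any 1 of 3 libraries (0.12 to 0.16). Set against 0 h, the response of NHX1 at 8 h was larger in Micro-TOM-EX by 1.02, which did not pass (adjusted p = 0.32). The remaining exchanger, LOC104649491 (named exchanger 4), was listed at 0 in all 0 h libraries and reached at most 0.18 FPKM.

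**Figure D3:**
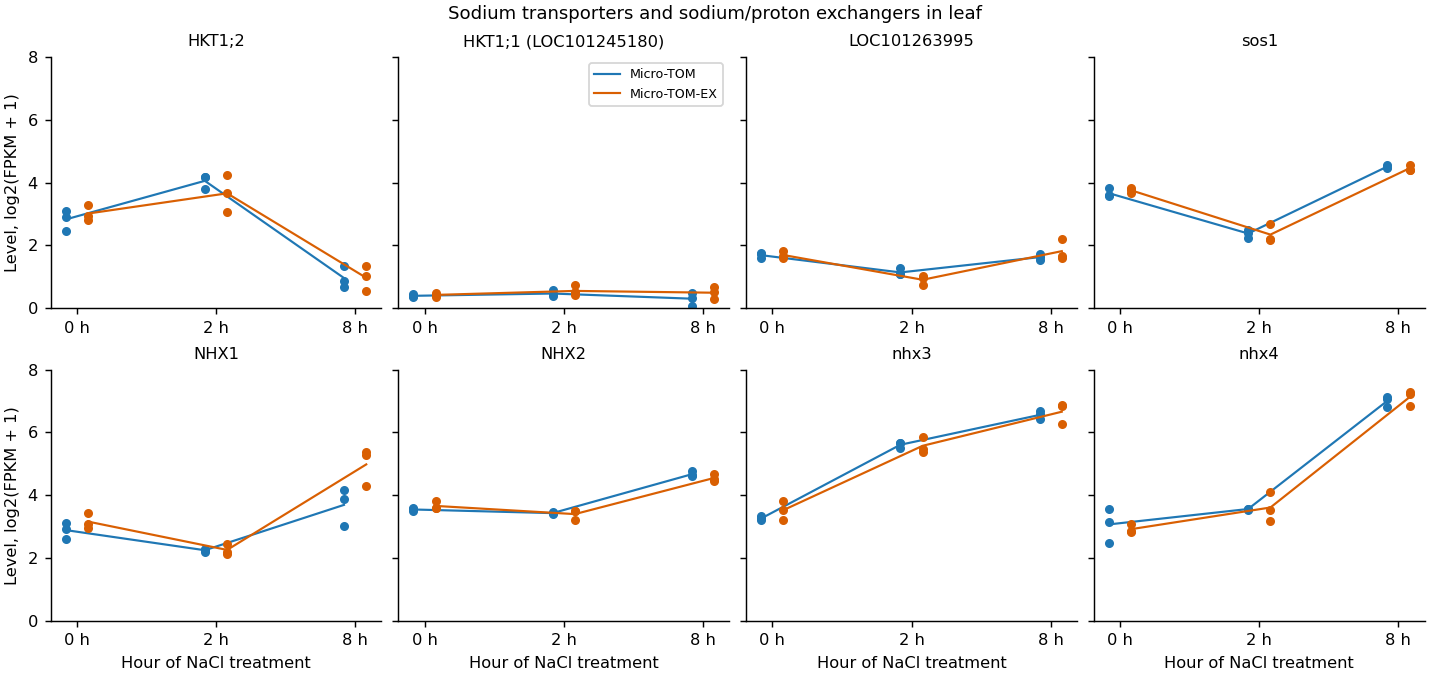
Level of the HKT and exchanger genes in log2(FPKM + 1) at 0, 2 and 8 h of NaCl treatment; points are single libraries, lines join the means of the log2 values, blue for Micro-TOM and orange for Micro-TOM-EX. HKT1;2 peaks at 2 h and falls by 8 h, and LOC101263995, sos1 and NHX1 dip at 2 h. The genes sos1, NHX1, NHX2, nhx3 and nhx4 stand highest at 8 h.

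The calcium sensors of the CBL family and the CIPK kinases that they recruit control several of these transporters in Arabidopsis, where CBL4 acts upstream of SOS1. Of 33 tested genes of this list (37 in the table), 11 rose, 9 fell and 13 did not pass at 2 h in Micro-TOM (median -0.05, against -0.31 for all genes, of which 27.5% rose and 47.5% fell). At 8 h 12 rose and 15 fell (median -0.08, against 0.04 for all genes, 37% up and 33.6% down). In Micro-TOM-EX 12 rose and 11 fell at 2 h, where 26.7% of all genes rose and 49.2% fell, and 13 rose and 14 fell at 8 h, where 35.5% rose and 35.8% fell. The 2 genes named calcineurin B-like protein 4 (CBL4) went opposite ways. LOC101258661 was highest at 2 h as HKT1;2 was, rising from 0.23 ± 0.09 to 28 ± 4.01 FPKM in Micro-TOM (4.55, adjusted p = 5.2e-11) and from 0.29 ± 0.105 to 12.8 ± 1.28 in Micro-TOM-EX (3.42, adjusted p = 9.6e-10). Unlike HKT1;2 it was still above its 0 h level at 8 h, at 8.03 ± 3.41 and 5.03 ± 0.451 FPKM. The other, LOC101262396, added after its values were seen, fell from 5.54 ± 2.41 to 0.663 ± 0.333 FPKM at 2 h in Micro-TOM (-1.94, adjusted p = 3.3e-06) and from 6.48 ± 2.44 to 0.29 ± 0.171 in Micro-TOM-EX (-2.50, adjusted p = 1.8e-07), and it was at 0.14 FPKM in both at 8 h. The kinase gene CIPK14 rose from 6.58 ± 0.871 to 36.3 ± 2.48 FPKM at 2 h in Micro-TOM (2.31, adjusted p = 2.4e-11).

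Potassium carriers, which set the potassium to sodium balance that HKT transporters bear on, had counts near those of all genes at 2 h in the HAK/KUP list. Of 14 tested HAK/KUP potassium transporters (17 in the table) 4 rose and 7 fell at 2 h in Micro-TOM (3 and 7 in Micro-TOM-EX), with medians of -0.36 and -0.32, where 27.5% of all genes rose and 47.5% fell (26.7% and 49.2%). At 8 h 8 rose and 3 fell (7 and 4), with medians of 0.50 and 0.30, where 37% of all genes rose and 33.6% fell (35.5% and 35.8%). Of 12 tested potassium channels (19 in the table) 5 rose and 5 fell at 2 h in each material, with medians of 0.09 and 0.04, where the medians of all genes were -0.31 and -0.37. The inward channel gene LKT1 was highest at 2 h, as HKT1;2 was, going from 3.09 ± 0.666 to 22.3 ± 2.78 FPKM in Micro-TOM (2.51, adjusted p = 2.7e-09). In Micro-TOM-EX it went from 3.26 ± 0.361 to 41.3 ± 9.92 FPKM (3.29, adjusted p = 1.5e-10). Unlike HKT1;2, LKT1 was still above its 0 h level at 8 h, at 7.18 ± 0.134 and 9.84 ± 1.45 FPKM (1.01 and 1.34, limma adjusted p = 6e-05 and 3e-06). At 2 h LKT1 was also higher in Micro-TOM-EX than in Micro-TOM (0.84, limma adjusted p = 0.0038), but the difference of 2 h responses did not pass (0.77, limma adjusted p = 0.068). The AKT2/3 channel gene LOC101251722, whose Arabidopsis counterpart works in the phloem, fell from 26.2 ± 4.4 to 2.29 ± 0.341 FPKM at 2 h in Micro-TOM (-3.04, adjusted p = 1.5e-10).

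In the list of CHX, KEA and CAX cation/proton antiporters (27 in the table) 16 genes were tested, and 6 rose and 7 fell at 2 h in Micro-TOM (5 and 9 in Micro-TOM-EX) and 3 rose and 6 fell at 8 h (5 and 7). The medians were -0.29 and -0.59 at 2 h, where 27.5% and 26.7% of all genes rose and 47.5% and 49.2% fell. At 8 h they were -0.23 and -0.18, where 37% and 35.5% of all genes rose and 33.6% and 35.8% fell. One of these antiporter genes had the course of HKT1;2 in both materials: the chloroplast potassium efflux antiporter gene LOC101265888 (KEA3), at 46.6 ± 1.96, 107 ± 21.8 and 14.3 ± 3.66 FPKM at 0, 2 and 8 h in Micro-TOM. It rose by 1.16 at 2 h (adjusted p = 2.3e-05), and its change at 8 h against 0 h was -1.66 (adjusted p = 5.2e-07). In Micro-TOM-EX its means were 53.7 ± 4.8, 91.1 ± 11.2 and 12.8 ± 2.43 FPKM.

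Proton pumps build the gradient that the exchangers spend. Of 3 tested plasma membrane pump genes (4 in the table), LHA1 fell at 2 h in Micro-TOM from 43.8 ± 7.41 to 17.6 ± 3.01 FPKM (-1.27, adjusted p = 9.4e-06), and LHA4 rose by 8 h from 157 ± 14 to 372 ± 68.9 FPKM (1.23, adjusted p = 2.7e-06). In Micro-TOM 1 rose and 2 fell at 2 h and 1 rose and 1 fell at 8 h, and in Micro-TOM-EX 0 rose and 2 fell at 2 h and 2 rose and 1 fell at 8 h. After rescaling 1 rose and 1 fell at 2 h in each material, and 1 rose and 1 fell at 8 h in Micro-TOM-EX. Of all 18402 genes tested, 27.5% rose and 47.5% fell at 2 h in Micro-TOM before rescaling (26.7% and 49.2% in Micro-TOM-EX). After it 6357 genes rose and 7008 fell in Micro-TOM, and 6266 and 7352 in Micro-TOM-EX. Of 29 tested vacuolar pump genes (32 in the table) 11 rose and 9 fell at 2 h in Micro-TOM (18 and 4 after rescaling). In Micro-TOM-EX 9 rose and 10 fell (14 and 5 after rescaling). At 8 h 14 rose and 7 fell in Micro-TOM (median 0.39, against 0.04 for all genes, 37% up and 33.6% down) and 16 rose and 5 fell in Micro-TOM-EX (median 0.37, against 0.00 for all genes, 35.5% up and 35.8% down). The subunit E gene LOC101265947 rose at 8 h from 38.5 ± 6.06 to 211 ± 6.49 FPKM in Micro-TOM (2.43, adjusted p = 6.2e-09).

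Cyclic nucleotide-gated channels and glutamate receptors are candidate paths for sodium into plant cells. Of 27 tested (29 in the table) 11 rose and 7 fell at 2 h in Micro-TOM (14 and 4 after rescaling), where 27.5% of all genes rose and 47.5% fell. In Micro-TOM-EX 16 rose and 6 fell (18 and 5 after rescaling), where 26.7% of all genes rose and 49.2% fell. These shares are from before rescaling. After it 6357 of 18402 genes rose and 7008 fell in Micro-TOM, and 6266 and 7352 in Micro-TOM-EX. At 8 h 12 of the 27 rose and 5 fell in Micro-TOM, where 37% of all genes rose and 33.6% fell. In Micro-TOM-EX 14 rose and 5 fell, where 35.5% of all genes rose and 35.8% fell. CNGC5 rose at 2 h from 11.2 ± 5.46 to 71.8 ± 8.2 FPKM in Micro-TOM (2.66, adjusted p = 1.8e-08), and at 8 h it was at 14.4 ± 1.93 FPKM.

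Genes of other functions tracked HKT1;2 more closely than any gene of these transport lists. The measure was Pearson's r of log2(FPKM + 1) over the 18 libraries, and 269 of 18401 genes had an r above 0.9 with HKT1;2. Among genes with a descriptive name the highest r was that of LOC101264045, a homeobox-leucine zipper transcription factor named HB2-like, at 0.974. Its group means were 6.6, 12.62 and 0.65 FPKM at 0, 2 and 8 h in Micro-TOM and 9.05, 12.15 and 0.45 in Micro-TOM-EX. The next were a beta-tubulin gene (LOC101253952, r = 0.97), a gene named for an anthocyanidin xylosyltransferase (LOC101256480, 0.969), the endoglucanase 25-like gene LOC101244370 (0.969), and the monogalactosyldiacylglycerol synthase gene LOC101246362 (0.969), of an enzyme that makes the main lipid of chloroplast membranes. The last of these went from 51.55 to 171.39 and then 7.74 FPKM in Micro-TOM.

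For LOC101263995 129 genes had an r above 0.9. Of those with a descriptive name the highest was LOC101266257, named for the transcription factor Pur-alpha 1, with r = 0.949. Its means were 83.74, 63.22 and 86.93 FPKM at 0, 2 and 8 h in Micro-TOM. It was followed by the green ripe-like 1 gene LOC778264 (r = 0.939), a protoporphyrinogen oxidase-like gene (LOC101251358, 0.929), the translation initiation factor 5B gene LOC101254977 (0.926) and a protein phosphatase 2C gene (LOC101249623, 0.926). The Spearman rho of LOC778264 was lower, at 0.796. That ranked it 210 among genes with a descriptive name and a highest group mean of at least 1 FPKM. These likenesses describe 18 libraries that share hours, so any gene with the same course by hour scores high.

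**Figure D4:**
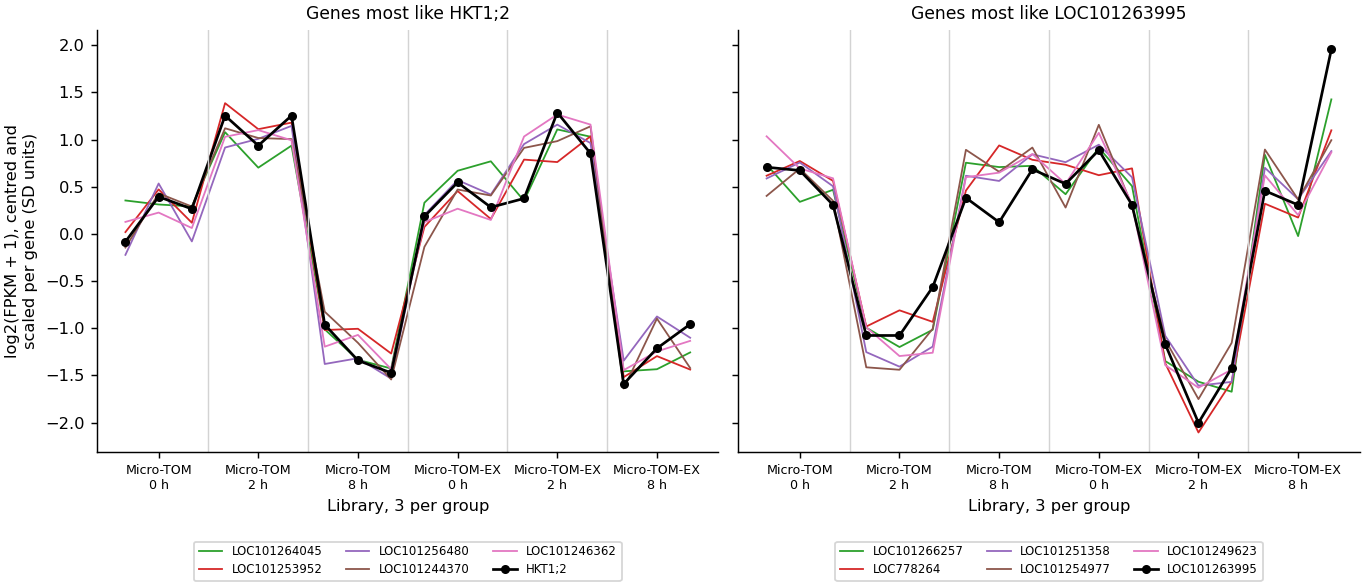
Course of HKT1;2 (left, black) and LOC101263995 (right, black) over the 18 libraries beside the 5 genes with a descriptive name most like each (coloured). Values are log2(FPKM + 1) centred and scaled per gene to SD units. Grey lines part the 6 groups of 3 libraries. The genes beside HKT1;2 are highest at 2 h and lowest at 8 h in both materials, and those beside LOC101263995 are lowest at 2 h.

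Markers of leaf cell types moved between hours too. HKT transporters act in vascular tissue, and the summed level of 19 vascular markers (phloem proteins, sieve element occlusion proteins and ATHB-15 genes, 14 of them with a mean of at least 1 FPKM over all libraries) was 223 to 297 FPKM at 0 h, 167 to 185 at 2 h and 137 to 192 at 8 h in Micro-TOM. In Micro-TOM-EX the sums were 220 to 339, 172 to 190 and 126 to 166 FPKM. At 2 h these sums were below those of 0 h in both materials, while HKT1;2 was above its 0 h level in Micro-TOM and its libraries overlapped those of 0 h in Micro-TOM-EX. The vascular markers did not move alike. LOC101245240 (PHLOEM PROTEIN 2-LIKE A8) went from 75.4 to 25.1 FPKM at 2 h in Micro-TOM and from 63.1 to 27.7 in Micro-TOM-EX. LOC101246577 (PHLOEM PROTEIN 2-LIKE A9) went from 42.5 to 39 and from 42.2 to 34.2 FPKM, with overlap in both. The sum of 33 mesophyll markers was 30400 to 45000 FPKM at 0 h, 10900 to 17800 at 2 h and 6920 to 19400 at 8 h in Micro-TOM. In Micro-TOM-EX it was 44500 to 47300, 12200 to 33200 and 7160 to 17600 FPKM. The guard cell list was matched by name alone. Besides FAMA, MUTE and SPEECHLESS genes it holds EPIDERMAL PATTERNING FACTOR and EPIDERMAL PATTERNING FACTOR-like genes, whose cell type was not checked. The sum of its 12 genes (7 with a mean of at least 1 FPKM over all libraries) was 51.2 to 53.7, 20.7 to 25.9 and 38 to 46.5 FPKM in Micro-TOM and 63.1 to 71.2, 17.2 to 23 and 33.2 to 41.1 in Micro-TOM-EX. Most of the drop in this sum at 2 h was 1 gene, the EPIDERMAL PATTERNING FACTOR-like gene LOC101258845 (25.6 to 0.537 FPKM in Micro-TOM, 41.6 to 0.45 in Micro-TOM-EX), while the guard cell factor gene LOC101246250 (FAMA-like) went from 7.98 to 12.2 and from 4.45 to 9.48 FPKM. None of these markers was at 0 in all libraries. The part of these shifts in the levels of the 2 sodium genes was not tested, and in whole leaves fewer cells of a type and less RNA per cell cannot be told apart.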

How the data were processed

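RNA from tomato leaves was extracted with Trizol and read on a BGI500, per the labels' protocols. The authors deposited 1 table of FPKM values for 23808 genes, with their own log2 fold change and q-value for 9 pairs of groups. The tools named, with no role given, were RSEM 1.2.12, HISAT2 2.0.4, DESeq2 1.4.5 and Bowtie2 2.2.5, per the submitters' processing notes. Each of the 18 FPKM columns is repeated in the table, with identical values. No counts were used here. Chromosome numbers were the same as in the reference table for 21825 of 21859 genes.

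Tests covered the 18402 genes that reached 1 FPKM in 3 or more libraries, on log2(FPKM + 1) with limma 3.58.1 in R 4.3.3, by 1 model of 6 group means with a mean trend, and p-values were adjusted by Benjamini and Hochberg in each of 12 comparisons. The test was checked on simulated data in which few genes changed and no library was shifted in scale, so the check does not cover the broad changes between hours. Depth was searched from 12 to 30 M (mega) fragments, with 145 bases taken off each length and a tolerance of 0.15 of a fragment. In each library 92.0 to 96.7% of the values of 289 to 434 genes then came out whole.

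Members, 9 transport lists and 4 marker lists were chosen with earlier results of these data known. List genes were matched by their names in the deposited table, and symbols irrespective of case. The genes named were the members, all HKT and exchanger genes, for each other transport list up to 4 of smallest adjusted p in comparisons with 0 h or between the materials, and the 5 of highest r for each member, if the highest group mean was at least 1 FPKM. Those of highest r were also limited to genes with a descriptive name. Not all of the list genes so chosen are named. Same-numbered libraries were tested for pairing: only at 0 h between the materials were all 3 correlations of their deviations above 0.1 (0.48, 0.44 and 0.13). Alternatives were other filters and pseudocounts, median ratio scaling, groups fitted alone, no mean trend, replicate blocks and each library left out. The authors' deposited q values, and list counts without the pair of replicate 2 libraries of 0 h, were added after the data were seen.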

Additional observations from a re-analysis of the deposited data

Results flagged for a closer look

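LOC101258661, 1 of 2 genes named calcineurin B-like protein 4, responded differently in the materials at 2 h, by a test of the difference itself. Its log2 change at 2 h against 0 h was 1.14 lower in Micro-TOM-EX than in Micro-TOM (difference of responses -1.14, SE 0.30, 95% interval -1.77 to -0.50, limma adjusted p = 0.032). After rescaling it was -1.15 (limma adjusted p = 0.04). The other alternatives are not given here for this difference. The 0 h values of the gene, 0.14 to 0.4 FPKM, lay under the 1 that was added before the log. The 2 h libraries held 31.25, 29.29 and 23.53 FPKM in Micro-TOM and 12.68, 14.12 and 11.56 FPKM in Micro-TOM-EX, with no overlap. Neither sodium gene passed that test. Of all genes 6.49% did so, and only the genes chosen for naming were looked at for flagging. In the lists 3 of 33 tested CBL and CIPK genes passed it, all lower in Micro-TOM-EX. So did 3 of 27 tested channels and receptors, all higher, and 1 of 16 antiporters and 1 of 29 vacuolar pumps, both lower.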

How the results depend on the processing

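The calls between hours of HKT1;2 in Micro-TOM, and at 8 h in Micro-TOM-EX, and of LOC101263995 at 2 h in both materials kept their direction and side of the threshold under all alternatives run. The rise of HKT1;2 at 2 h in Micro-TOM-EX no longer passed with no filter (0.64, adjusted p = 0.067), with a pseudocount of 0.1 (0.70, 0.12) or with these groups alone (0.64, 0.089). Without 1 library it was 0.36 to 0.94 (adjusted p 0.0058 to 0.26) and passed in 8 of 18 cases. The return of LOC101263995 in Micro-TOM was 0.25 after rescaling and 0.38 in the authors' deposited table. Values near 0 that were never called changed sign. For HKT1;2, Micro-TOM-EX against Micro-TOM at 8 h was -0.02 with a pseudocount of 0.1 and -0.18 to 0.22 without 1 library, and the difference of 8 h responses was -0.37 to 0.04. For LOC101263995, the materials at 0 h differed by -0.02 after rescaling, -0.03 without both replicate 2 libraries of 0 h, -0.06 in the authors' deposited table and -0.05 to 0.05 without 1 library. Its other leave-one-out ranges that crossed 0 were -0.07 to 0.24 (8 h against 0 h in Micro-TOM-EX), -0.01 to 0.30 (the materials at 8 h) and -0.01 to 0.30 (8 h responses). NHX2 at 2 h in Micro-TOM-EX went from -0.26 to 0.05 after rescaling. The cause was not tested. With the replicate number as a block (replicate block), HKT1;2 at 2 h in Micro-TOM-EX had an adjusted p of 0.046; with it within each hour, the materials at 0 h differed by 0.19 for HKT1;2 and 0.00 for LOC101263995, and the pairing changed no call of the 2 members. Counts of all genes that moved by over 1.5 times were those between the materials and of responses. With the groups alone, 45 higher and 59 lower genes at 0 h stood in place of 359 and 379, 102 and 61 at 8 h in place of 182 and 125, and 77 and 43 for 8 h responses in place of 150 and 99. With a pseudocount of 0.1, 134 and 68 stood in place of 233 and 120 for responses from 2 h to 8 h, and 45 lower in place of 99 from 0 h to 8 h. The block within each hour gave 78 lower in place of 120 from 2 h to 8 h, and leaving out both replicate 2 libraries of 0 h gave 181, and 203 in place of 125 lower between the materials at 8 h. Among list counts of hours, rescaling moved those given with it above and the lower channels and receptors at 2 h in Micro-TOM (4 in place of 7), and no filter moved the higher antiporters at 8 h (5 in place of 3 in Micro-TOM, 8 in place of 5 in Micro-TOM-EX) and the higher plasma membrane pumps at 8 h in Micro-TOM-EX (1 in place of 2). Depth limits HKT1;2 most at 8 h, where values rest on few fragments.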
